A study of Mus musculus with 27 samples.

Results

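Gene expression in samples labelled as neurons at postnatal day 2 (P2) was compared with that in embryo samples at embryonic day 13 (E13), over 11 of the 27 mouse BeadChip arrays of the study. The comparison was named for neurons of the Tbr2 lineage, and that lineage was not tested here. The members of the comparison were chosen by their labels: the 5 arrays of P2 neurons, which were isolated from brain cortex by a sort for green fluorescent protein (GFP), and the 6 arrays of the E13 embryo group, whose signal columns carry the letters WT, read here as wild type. The labels of the embryo arrays name no tissue, and the text that mentions a sort stands on every sample of the study, so it does not tell whether the embryo samples were sorted. The labels do not give the allele behind the GFP, the strain or the number of animals per array. The other arrays were E16 embryo (5 arrays) and Tbr2 conditional knockout (cKO) cortex at E13 (5 arrays) and at E16 (6 arrays). They were not compared here, but they entered the normalisation, the filter on probes and the shared estimate of the spread. With only the P2 and E13 embryo arrays, 10219 genes were tested, against 10663 with all arrays. E16 embryo values are given where they place a change between E13 and P2.

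Tbr2, the protein of the gene Eomes, is a T-box transcription factor of the intermediate progenitors of the developing cortex. These cells arise from radial glia, the stem cells that line the ventricle, divide in the subventricular zone and give rise to glutamatergic projection neurons. As the young neurons leave the cycle they switch off progenitor genes, migrate into the cortical plate, take on the identity of a layer and begin to make ion channels, transmitter receptors and synapses. At E13 the mouse cortex is still rich in dividing progenitors and is making deep-layer neurons, and by P2 most cortical projection neurons have been born.

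Each value below is a quantile-normalised log2 signal of 1 probe per gene, or the log2 change of P2 neurons minus E13 embryo with its standard error (SE) from a linear model fitted with limma, and the threshold for passing was 0.05 on p-values adjusted by Benjamini and Hochberg. Rose and fell are used of P2 neurons relative to E13 embryo. Where a gene was detected in only some arrays of a group the number is given, and a fold there is in part against background signal, so its size is uncertain. A fold against a group with none is written as at least that fold. Probes detected above the negative controls made up 39% to 42.9% of each P2 array and 38.4% to 40% of each E13 array, and median raw signals were 17.6 to 42.3 and 10 to 15.2. Arrays of P2 neurons correlated with each other at 0.973 to 0.988 (Pearson's r over genes, which are not independent replicates) and with no array of another group above 0.872. The number of arrays limits the precision. The P2 arrays lie in a deposited table of their own, so the age, the sort, the tissue taken and the table cannot be told apart in any difference below.

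Of 10663 genes tested, 3386 were higher in P2 neurons (31.8%) and 4494 were lower (42.1%), so that 73.9% passed in 1 direction or the other. At least 2-fold changes were made up of 1775 higher (16.6%) and 1666 lower genes (15.6%). The very large changes ran mostly upward, with 112 genes more than 16-fold higher and 16 genes more than 16-fold lower. The median change over all genes was -0.13. This split depended on the scaling: with the P2 and embryo tables normalised separately the median of all genes moved to 0.62 and 82.4% of the calls were higher, against 43% when all arrays were normalised together, and 934 of the genes that passed changed direction. The strip plot of the gene lists shows that progenitor and cell-cycle lists lay to the left of the median of all genes, and synaptic, vascular and microglial lists to its right. Counts of list members below are to be set against the 31.8% higher and 42.1% lower of all genes. In these bulk samples, fewer cells of a type and less RNA per cell cannot be told apart.

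**Figure D1:**
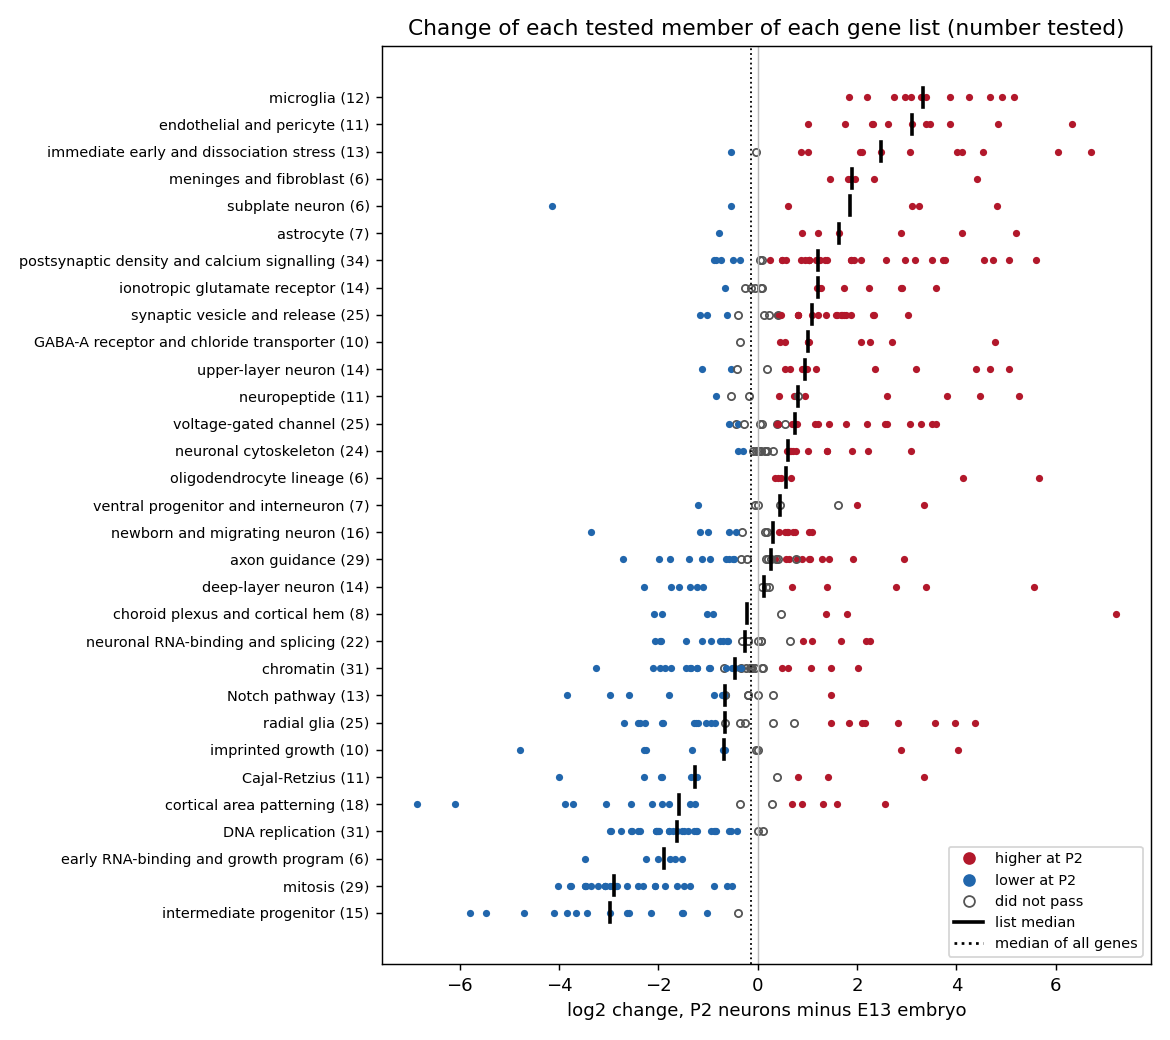
Log2 change in P2 neurons minus E13 embryo of each tested member of the gene lists with at least 6 tested genes, 1 point per gene, coloured by direction where it passed, with the list median as a bar and the median of all genes, -0.13, as a dotted line. The intermediate progenitor list lay lowest, with a median of -2.97, and the microglia list highest, with a median of 3.33.

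The P2 arrays were checked against markers of the cells they are labelled with and of other cells of the cortex. The neuronal gene Mapt, which encodes the microtubule-binding protein tau, had a strong signal. It lay at 14.41, 14.33, 14.22, 14.43 and 14.47 in the P2 arrays against 12.02 to 12.71 with a median of 12.51 in the E13 arrays. Neuronal genes did not all rise. Of 24 neuronal cytoskeleton genes 13 rose and 2 fell, and of 22 neuronal RNA-binding and splicing genes 5 rose and 10 fell. Markers of vessels, microglia, fibroblasts and glia were also well above background. All 11 tested endothelial and pericyte genes passed as higher, against 31.8% of all genes, as did all 12 microglial, 6 meningeal and fibroblast and 6 oligodendrocyte-lineage genes and 6 of 7 astrocyte genes. These counts follow in part from the probe filter. A gene detected on no array outside the P2 group was tested only if all 5 P2 arrays detected it. No E13 array detected 10 of the 11 endothelial and pericyte, 11 of the 12 microglial and 5 of the 6 meningeal and fibroblast genes. These 3 lists held 15, 14 and 10 genes, and members not tested are not counted. Without P2 arrays 3 and 4, set apart in the next paragraph, 3 of 7 astrocyte genes were higher and 1 lower. Of the 6 oligodendrocyte-lineage genes 5 were then higher, while the endothelial, microglial and fibroblast counts did not change. Summed on the linear scale, endothelial and pericyte signal was 5370, 5750, 4190, 4560 and 4460 in the P2 arrays against 295 to 329 in the E13 arrays, and microglial signal was 4520, 6230, 4210, 5440 and 4580 against 325 to 377. Neither sum overlapped between the groups. The part of these cells in the changes described below was not tested.

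Within the P2 group, array 3 and then array 4 stood apart from arrays 1, 2 and 5 in genes of glia, interneurons and dividing cells (arrays are numbered by column, as names only). Olig1, a transcription factor of oligodendrocyte precursors, lay at 9.34, 9.24, 13.22, 11.94 and 10.48 in P2 arrays 1 to 5, against 4.77 to 5.66 with a median of 5.13 in the E13 arrays, of which 1 detected it. Pdgfra, the platelet-derived growth factor receptor of the same precursors, lay at 7.29, 7.71, 11.11, 9.63 and 8.23, while no E13 array detected it. Dlx1, a homeodomain factor of cortical interneurons and their ventral progenitors, lay at 5.96, 6.19, 11.38, 10.04 and 7.66, against 5.92 to 7.60 at E13. All 3 were highest on array 3 and next highest on array 4. The vesicular GABA transporter gene Slc32a1 followed the same order, with 5.43, 5.90, 10.40, 8.77 and 7.24 against 5.01 to 6.54 (detected in 4 of 5 P2 and 2 of 6 E13 arrays), and its rise no longer passed without arrays 3 and 4 (limma adjusted p = 0.416). Array 3 was the highest of the 5 for 7 of 7 interneuron genes, 23 of 25 radial glia genes and 27 of 29 mitosis genes, against 18.1% of all genes tested, whereas it was the highest for 0 of 12 microglial and 1 of 11 endothelial and pericyte genes. Counts are therefore also given without arrays 3 and 4, a setting added once the arrays had been compared: over all genes these were 3249 higher and 4296 lower.

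**Figure D2:**
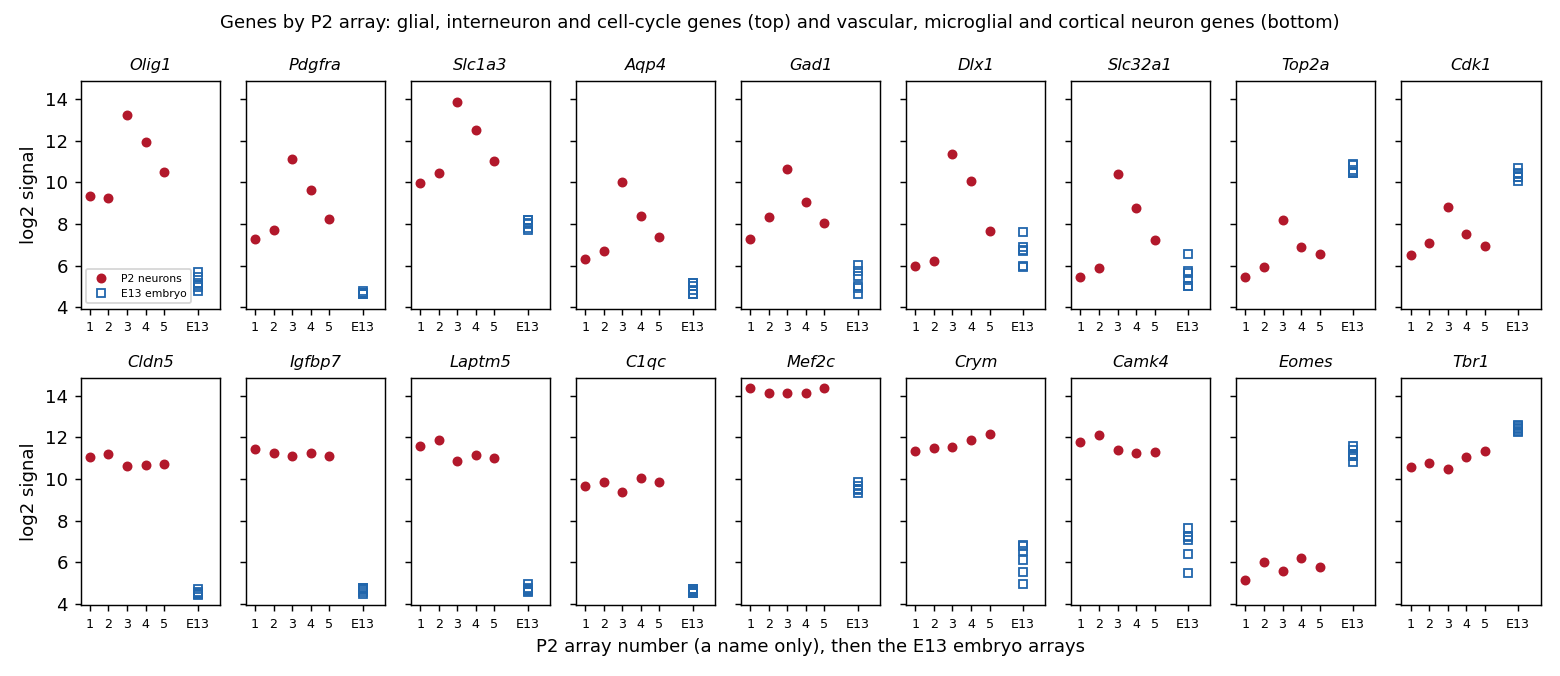
Log2 signal of 18 genes on each of the 5 P2 arrays (filled circles, left of each panel) and on the 6 E13 embryo arrays (open squares, right). Glial, interneuron and cell-cycle genes in the upper row were highest on P2 array 3, while the vascular, microglial and cortical neuron genes in the lower row differed less between P2 arrays.

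A gene was called lost by P2 when its probe was detected in all 6 E13 arrays and in none of the 5 P2 arrays and was lower by limma. This held for 188 genes (1.76% of those tested), 10 of them predicted genes. Since detection chose them, their falls are a description, and each fold is a lower bound against the background limit of the P2 arrays, from 1.26-fold to 78.4-fold with a median of 1.9-fold. For 182 of the 188, no probe of the gene was detected in any P2 array. Just outside the rule, 86 lower genes were detected in 1 P2 array, with a median change of -1.42 against -1.47 for those inside it. Of the 188 genes, 106 were detected in all 5 E16 embryo arrays and 22 in none.

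Among the lost genes, 2 transcription factor genes of the early embryo fell furthest. Fezf1, a zinc-finger repressor of early forebrain and olfactory development (chromosome 6), lay at 4.73, 5.40, 4.64, 4.92 and 4.84 in the P2 arrays against 11.04 to 12.54 with a median of 11.84 in the E13 arrays, at least 78.4-fold lower. Uncx, a homeodomain factor, lay at 4.48, 4.52, 4.59, 4.49 and 4.73 against 9.84 to 11.69 with a median of 10.66, at least 36.6-fold lower. In both genes the P2 arrays sat at background and the E13 arrays were far above it, with no overlap. Dbx1, a homeodomain factor of progenitors at the borders of the pallium, fell at least 6.64-fold, and Crabp2, a retinoic acid carrier, at least 8.55-fold. These genes were already low at E16: Dbx1 averaged 8.20 ± 0.67 at E13 (SD, n = 6), 5.19 ± 0.09 at E16 (SD, n = 5) and 4.70 ± 0.19 at P2 (SD, n = 5), and Crabp2 8.56 ± 0.67, 5.27 ± 0.30 and 4.85 ± 0.21. Gng8, a G protein gamma subunit, followed the same course with 7.68, 5.17 and 4.82. Fezf1 was detected on 2 of the 5 E16 arrays, at 8.04 and 7.36, and the same 2 arrays held the most Uncx, 7.70 and 6.94. Among the E13 arrays, array 1 was the highest for each of Fezf1, Uncx, Crabp2, Dbx1 and Gng8.

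A second course among the lost genes left E16 close to E13, with the fall between E16 embryo and P2 neurons. Fzd2, a Frizzled receptor for Wnt ligands, averaged 9.74 ± 0.44 at E13, 9.82 ± 0.43 at E16 and 4.99 ± 0.32 at P2. On the single arrays Fzd2 lay at 4.67, 4.63, 5.29, 5.28 and 5.07 at P2 against 9.24 to 10.36 with a median of 9.74 at E13, at least 19.3-fold lower. Sertad3, a transcriptional coregulator, averaged 7.99 at E13, 8.02 at E16 and 5.01 at P2. Bmf, a pro-apoptotic member of the Bcl-2 family, was at least 5.2-fold lower in P2 neurons, Zfp423, a zinc-finger factor, at least 6.12-fold and Sapcd1 at least 6.16-fold, and each was still above 7 at E16. Ppp1r14a, an inhibitor of myosin phosphatase, was intermediate at E16, with 8.53, 7.04 and 4.78 at the 3 stages.

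**Figure D3:**
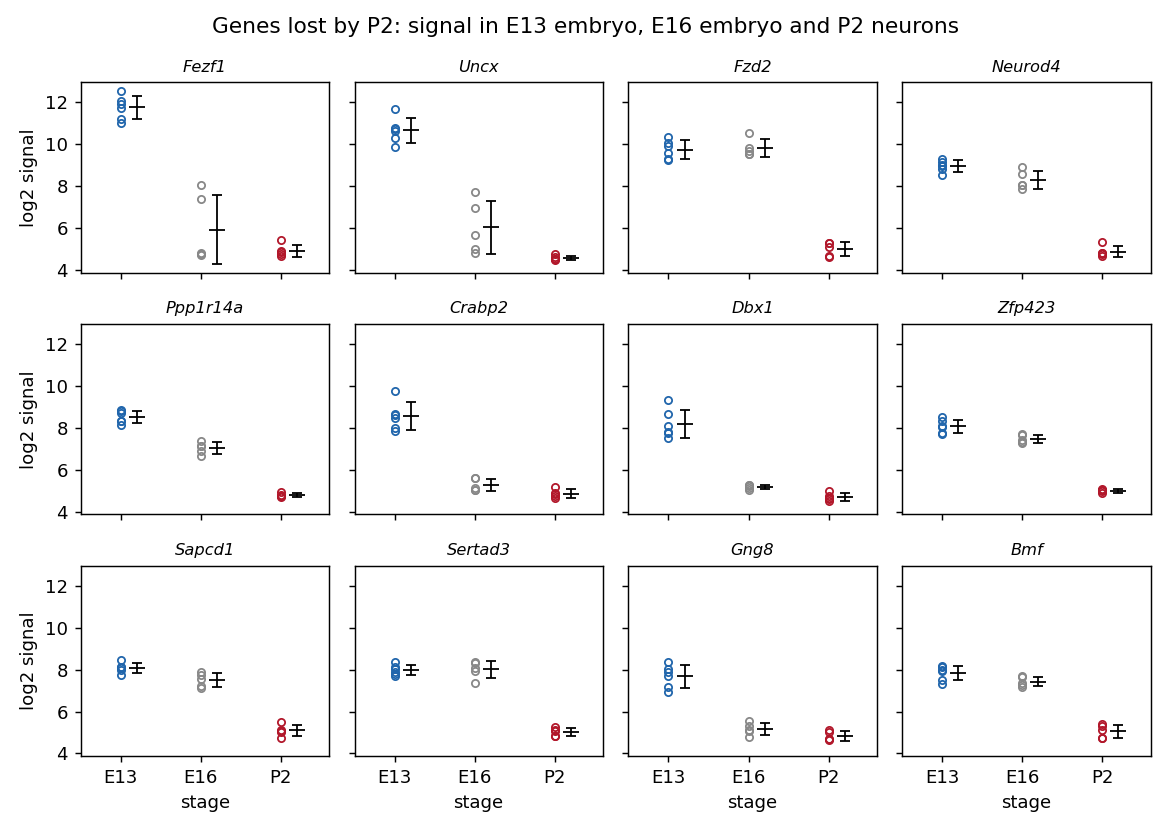
Log2 signal in E13 embryo, E16 embryo and P2 neurons of the 12 named genes lost by P2, with 1 circle per array and the mean ± SD beside them. Fezf1, Uncx, Crabp2, Dbx1 and Gng8 had fallen by E16, while Fzd2 and Sertad3 had not.

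The list of cortical area patterning genes, which set up regional identity in the early pallium, held 11 lower and 5 higher of 18 tested genes, with a median of -1.58. Lhx9, a LIM homeodomain factor, was 14.7-fold lower, at 5.25 ± 0.30 in P2 neurons (SD, n = 5) and 9.12 ± 0.43 in E13 embryo (SD, n = 6), and was detected in 2 of the 5 P2 arrays. Dmrt3, a DM-domain factor graded across the early cortex, was 13.1-fold lower and lay at 4.62, 4.93, 5.15, 5.46 and 5.47 against 8.59 to 9.15 with a median of 8.84, with 1 P2 array above the detection limit. Both had reached an intermediate level at E16, 6.59 and 7.14. The counts were 4 higher and 12 lower without P2 arrays 3 and 4. Hox genes, which mark hindbrain and spinal cord, gave no tested gene among the 24 on the array.

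Intermediate progenitor genes had the lowest median of the lists with at least 6 tested genes. Of 15 tested genes 14 fell and 0 rose, with a median change of -2.97, and without P2 arrays 3 and 4 all 15 fell. Eomes lay at 5.16, 5.99, 5.57, 6.18 and 5.76 in P2 neurons against 10.79 to 11.57 with a median of 11.17 in E13 embryo, 44.1-fold lower (limma adjusted p = 1.03e-18), and its P2 signal was above the detection limit in 4 of the 5 arrays. Neurog2, the proneural factor that drives glutamatergic neurogenesis, lay at 5.95, 5.87, 5.81, 6.75 and 6.12 against 11.72 to 12.30 with a median of 11.80 and was 55.2-fold lower (limma adjusted p = 1.17e-19). In both genes all P2 arrays sat several log2 units under all E13 arrays. Rhbdl3, a rhomboid-family gene, was 26.2-fold lower, with a log2 change of -4.71 ± 0.19 SE, and was detected in 3 P2 arrays. Neurod4, a bHLH factor of committed precursors, was lost, at 4.75, 4.82, 5.34, 4.79 and 4.64 against 8.53 to 9.30 with a median of 8.97, at least 11.3-fold lower. At E16 these genes were still high, with 10.45 for Eomes, 11.30 for Neurog2, 9.48 for Rhbdl3 and 8.28 for Neurod4. Tbr1, the T-box factor that follows Tbr2 in newborn deep-layer neurons, kept a high signal at P2, 10.58, 10.75, 10.46, 11.07 and 11.36 against 12.24 to 12.59 with a median of 12.42, and fell by 1.58 on the log2 scale (SE 0.26; limma adjusted p = 4.68e-06).

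Notch signalling keeps neighbouring progenitors undifferentiated, and its ligands are made by the cells that commit. Of 13 tested pathway genes 7 fell and 1 rose, against 42.1% and 31.8% of all genes, with a median of -0.65. Dll1, Dll3 and Mfng are also members of the intermediate progenitor list, so the counts of these lists are not separate. The ligand gene Dll1 lay at 6.32, 6.39, 6.97, 6.62 and 6.69 in P2 neurons against 9.39 to 9.93 with a median of 9.51 in E13 embryo and was 7.86-fold lower. Dll3, a ligand-like inhibitor, was 6.01-fold lower (detected in 2 P2 arrays), and Mfng, a glycosyltransferase that modifies Notch receptors, 14.2-fold, from signals of 8.23 ± 0.28 in P2 neurons and 12.06 ± 0.12 in E13 embryo (SD, n = 5 and 6). The target gene Hey1 averaged 9.71 ± 0.38 and 11.49 ± 0.13. The gene of the list that rose was Hes1, by 1.47 (SE 0.25), with every P2 array above every E13 array. It was detected in 3 E13 arrays. Hes5 (0.31 ± 0.44 SE) and Nrarp (-0.21 ± 0.27 SE) did not pass. Without P2 arrays 3 and 4 the list held 9 lower genes and 1 higher, and with tables normalised separately 4 lower and 4 higher.

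Genes of mitosis fell as a block. All 29 tested genes were lower in P2 neurons, against 42.1% of all genes, with a median of -2.89 that became -3.39 without P2 arrays 3 and 4. In 25 of the 29 every P2 array lay below every E13 array, against 32.3% of all genes. Top2a, the topoisomerase that untangles replicated chromosomes, lay at 5.42, 5.92, 8.16, 6.88 and 6.54 in P2 neurons against 10.43 to 10.89 with a median of 10.54 in E13 embryo, 16.3-fold lower (limma adjusted p = 3.91e-12). Kif2c, a kinesin of the centromere, was 13.8-fold lower, Spc25, a kinetochore subunit, 13.6-fold, and Aurkb, the kinase that corrects chromosome attachment, 11.2-fold. Top2a was detected in 4 of the 5 P2 arrays, Spc25 and Aurkb in 3 and Kif2c in 2. Each of these genes was highest on P2 array 3, where Top2a reached 8.16 and the summed mitotic signal 10400, against 2670 on P2 array 1 and 28000 to 36500 in the E13 arrays. Glial and interneuron markers were highest on the same array, and their part in the residual mitotic signal was not tested. Of the 31 tested DNA replication genes 29 fell and 0 rose, with a median of -1.62. The helicase subunit gene Mcm2 was 7.86-fold lower, at 5.85, 6.11, 7.66, 6.72 and 6.29 against 9.28 to 9.80 with a median of 9.47. Thymidine kinase, Tk1, was 7.7-fold lower, Uhrf1, which guides maintenance of DNA methylation, 6.77-fold, and Mcm10 5.87-fold (detected in 4 P2 arrays). With the tables normalised separately the counts were 25 lower and 1 higher for mitosis and 21 lower and 4 higher for DNA replication.

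Promoters of 3 mitosis genes and 1 DNA replication gene are shown because nearly all tested members of both lists fell, and to show the motifs searched. In RefSeq promoters (GRCm38.p6, 250 bases before to 50 after the first listed start of each gene, both strands searched), the cell-cycle motif known as CHR, TTTGAA, was present in 23 of the 25 mitosis promoters matched (92%), against 11.5% of the 8628 promoters of tested genes and 18.1% of all 27025 promoters of the table. CCAAT, the letters bound by NF-Y, stood in 19 of the 25 (76%), against 39.2% and 37.9%. The E2F motifs TTTCCCGC and TTTGGCGC were in 0 of the 25 mitosis promoters and in 7 of 26 DNA replication promoters (26.9%), against 3% and 1.63%. DNA replication promoters held CCAAT in 14 of 26 (53.8%) and TTTGAA in 3 of 26 (11.5%), the last equal to the share of the tested genes, so most of that list held neither CHR nor E2F letters. In the 4 sequences shown no match overlaps another. A match describes letters and is not evidence of binding. The 150 bases before the start of 4 genes follow, in the direction of the gene, with CCAAT and TTTGAA in capitals in the first 3, and CCAAT and the E2F letters in capitals in Mcm5, on whichever strand they stand.
Top2a, chr11:99024190-99024339, minus strand: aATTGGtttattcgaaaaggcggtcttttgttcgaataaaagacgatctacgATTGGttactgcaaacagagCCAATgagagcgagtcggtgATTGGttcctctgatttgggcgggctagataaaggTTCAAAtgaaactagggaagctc
Cdk1, chr10:69352913-69353062, minus strand: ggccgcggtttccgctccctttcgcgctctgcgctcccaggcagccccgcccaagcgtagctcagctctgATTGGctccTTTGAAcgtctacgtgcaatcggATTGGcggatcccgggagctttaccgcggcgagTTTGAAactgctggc
Cdc20, chr4:118437344-118437493, minus strand: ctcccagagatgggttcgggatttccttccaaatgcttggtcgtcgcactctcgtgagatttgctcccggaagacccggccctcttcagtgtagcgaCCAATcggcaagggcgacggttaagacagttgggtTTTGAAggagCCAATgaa
Mcm5, chr8:75109359-75109508, plus strand: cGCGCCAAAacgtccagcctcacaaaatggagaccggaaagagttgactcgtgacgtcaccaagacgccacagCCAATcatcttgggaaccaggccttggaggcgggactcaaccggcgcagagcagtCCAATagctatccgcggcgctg

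The P2 and E13 arrays did not overlap in any of the 4 genes shown. Cdk1, the kinase that starts mitosis, lay at 6.51, 7.07, 8.83, 7.52 and 6.96 in P2 neurons against 10.05 to 10.68 with a median of 10.32 in E13 embryo (7.85-fold lower). Cdc20, which activates the anaphase-promoting complex, lay at 6.72, 7.08, 9.04, 8.04 and 6.58 against 10.38 to 10.82 with a median of 10.56 (8.43-fold lower). Mcm5, a subunit of the replicative helicase, lay at 8.21, 8.33, 9.50, 8.41 and 7.94 against 10.74 to 11.13 with a median of 10.86 (5.29-fold lower). Promoters of synaptic vesicle genes held CCAAT in 4 of 22 (18.2%) and TTTGAA in 4 of 22, and those of the 416 gained genes matched held TTTGAA in 56 (13.5%).

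Radial glia genes moved in both directions. Of 25 tested, 12 fell and 8 rose, shares near the 42.1% and 31.8% of all genes, with a median of -0.65. Without P2 arrays 3 and 4 there were 15 lower and 8 higher. The falling genes included Gli3, the main transcriptional repressor of hedgehog signalling (6.42-fold lower), Emx1, a homeodomain factor of pallial progenitors (5.32-fold lower), and Vim, the intermediate filament vimentin, at 8.41, 8.24, 9.66, 9.14 and 8.46 in P2 neurons against 10.76 to 11.51 with a median of 11.02 in E13 embryo. The rising genes are also expressed by astrocytes or oligodendrocyte precursors. Slc1a3, a glial glutamate transporter, lay at 9.96 to 13.86 in P2 neurons with 12.52 on array 4, against 7.71 to 8.19 with a median of 8.01, a change of 3.57 ± 0.44 SE. Ednrb, the endothelin receptor B, lay at 9.13, 9.90, 12.30, 11.36 and 10.09 against 5.70 to 6.79 with a median of 6.15, and Tnc, the matrix protein tenascin C, at 7.67, 7.52, 10.54, 9.47 and 8.60, while no E13 array detected Tnc (at least 8.71-fold higher). All 3 followed the order of Olig1, highest on array 3 and then on array 4. Without these 2 arrays the log2 changes were 2.49 for Slc1a3, 3.52 for Ednrb and 1.85 for Mfge8, a secreted glycoprotein of astroglia, and each still passed. With the tables normalised separately the list held 6 lower and 10 higher genes.

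The early growth program fell throughout. All 6 tested genes of the list, whose best known members are RNA-binding proteins of early progenitors, were lower, with a median of -1.89, also with tables normalised separately. Igf2bp1, an mRNA-binding protein, lay at 7.56, 7.62, 7.28, 7.26 and 7.36 in P2 neurons against 10.68 to 11.23 with a median of 10.81 in E13 embryo, 11.2-fold lower, and Igf2bp3 was 4.76-fold lower. Lin28b, which blocks maturation of let-7 microRNAs, was at background at P2, 4.91, 5.19, 4.76, 4.83 and 4.54, against 6.13 to 6.83 with a median of 6.53 at E13, at least 2.07-fold lower, and no E16 array detected it. Sall4, a zinc-finger factor of early embryonic cells, was at least 2.4-fold lower, and Ccnd1, cyclin D1, 3.39-fold lower.

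Of 31 tested chromatin genes 17 fell and 5 rose, against 42.1% lower and 31.8% higher of all genes, with a median of -0.47, but with the tables normalised separately 11 were lower and 15 higher. Cbx2, a Polycomb subunit, lay at 5.90, 5.63, 6.10, 5.84 and 6.34 in P2 neurons against 8.94 to 9.39 with a median of 9.27 in E13 embryo and was 9.6-fold lower (limma adjusted p = 6.06e-17). Chd4, the remodelling ATPase of the NuRD complex, was 3.93-fold lower, and Chd5, its neuronal relative, was 4.04-fold higher, at 11.61, 11.77, 11.13, 11.10 and 11.15 against 9.02 to 9.58 with a median of 9.40. Neuronal RNA-binding and splicing genes gave 10 lower of 22, close to the 42.1% of all genes, and 5 higher (11 higher and 5 lower with the tables normalised separately). Rbfox1, a neuronal splicing regulator, was 4.77-fold higher, at 13.39 ± 0.17 in P2 neurons and 11.14 ± 0.32 in E13 embryo (SD, n = 5 and 6), and Msi1 and Msi2, Musashi proteins of neural progenitors, were 4.17-fold and 3.89-fold lower. Qk, an RNA-binding protein of glia and progenitors, was not detected at E13 and lay at 5.66, 6.34, 8.45, 7.45 and 6.38 in the P2 arrays, highest on array 3 and then on array 4 as Olig1 was.

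Of 16 pairs of genes in which a later member is known to take over from an earlier one as neurons mature, 15 had both members tested. The full exchange, with the later member higher and the earlier member lower, was found in 2 pairs when all arrays were normalised together and in 8 when the tables were normalised separately. The 2 pairs were Neurod6 over Neurog2 and Cbx7 over Cbx2, and both stood under either scaling. Neurod6, a bHLH factor of differentiated pyramidal neurons, rose by 1.10 (SE 0.27), although 1 E13 array lay inside the P2 range, 8.09 to 9.34 against 6.85 to 8.32. Cbx7, a Polycomb subunit of differentiated cells, averaged 6.23 ± 0.41 in P2 neurons and 5.16 ± 0.38 in E13 embryo (SD, n = 5 and 6), where 1 array detected it. In the BAF chromatin remodelling complex the progenitor subunits fell, Actl6a by 2.11 and Ss18 by 1.37, while the neuronal subunits Actl6b (-0.12 ± 0.10 SE) and Ss18l1 (-0.05 ± 0.11 SE) did not pass and were higher with the tables normalised separately. Smarcc1 and Smarcc2 both fell, by 1.44 and 0.98. The histone methyltransferase Ezh2 fell by 1.75, and its relative Ezh1, at -0.16 ± 0.15 SE and detected in 3 P2 and 3 E13 arrays, did not pass and was higher under separate normalisation. The splicing repressor Ptbp1 fell by 1.44, and for Ptbp2, which follows it in young neurons, the change was 0.65 ± 0.30 SE (limma adjusted p = 0.0517), with every P2 array above every E13 array, and it was higher under separate normalisation. Ptbp2 also passed as higher with only the P2 and E13 embryo arrays (0.64, limma adjusted p = 0.000417). The same held with the mean of all probes (0.76) and with arrays scaled to a common median (0.80). It did not pass without P2 arrays 3 and 4 (limma adjusted p = 0.0959). Between the splicing regulators Celf4 and Msi1, Msi1 fell and Celf4, at 0.08 ± 0.13 SE, did not pass and was higher under separate normalisation; another probe of Celf4 moved the other way. The remaining pairs were Dpf1 (-0.34 ± 0.21 SE) with Phf10 (0.11 ± 0.11 SE), subunits of the BAF complex, and Tubb4a (0.15 ± 0.15 SE) with Tubb5 (-0.09 ± 0.09 SE), beta-tubulins, of which none passed and all 4 were higher under separate normalisation.

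In the pairs of channels, transporters, receptors and kinases, 4 of 5 earlier members rose. Slc12a5, the chloride exporter KCC2 that makes GABA inhibitory, was not detected at E13 and lay at 6.86, 6.66, 6.27, 6.59 and 6.85 at P2, at least 2.01-fold higher, and the chloride importer Slc12a2 rose by 0.46. The NMDA receptor subunit gene Grin2b rose by 2.91 ± 0.27 SE, with 12.12, 11.72, 11.56, 11.59 and 11.51 in P2 neurons against 8.21 to 9.09 with a median of 8.92 in E13 embryo. Grin2a, the subunit of mature synapses, was not detected at E13 and was weak at P2, 6.81, 5.70, 6.00, 5.69 and 5.74, at least 1.27-fold higher. Camk2b rose by 3.72 and Camk2a by 1.25. The sodium channel gene Scn3a rose by 0.69 and Scn8a, detected in 4 P2 arrays, did not pass, at -0.28 ± 0.16 SE, and was higher under separate normalisation. Without P2 array 5, Scn8a passed as lower (-0.45). Of the vesicular glutamate transporters, Slc17a6 fell by 1.02 and Slc17a7, at 8.42, 8.92, 8.16, 8.84 and 9.23 against 8.01 to 8.68 with a median of 8.27, did not pass (limma adjusted p = 0.239) and was higher under separate normalisation.

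**Figure D4:**
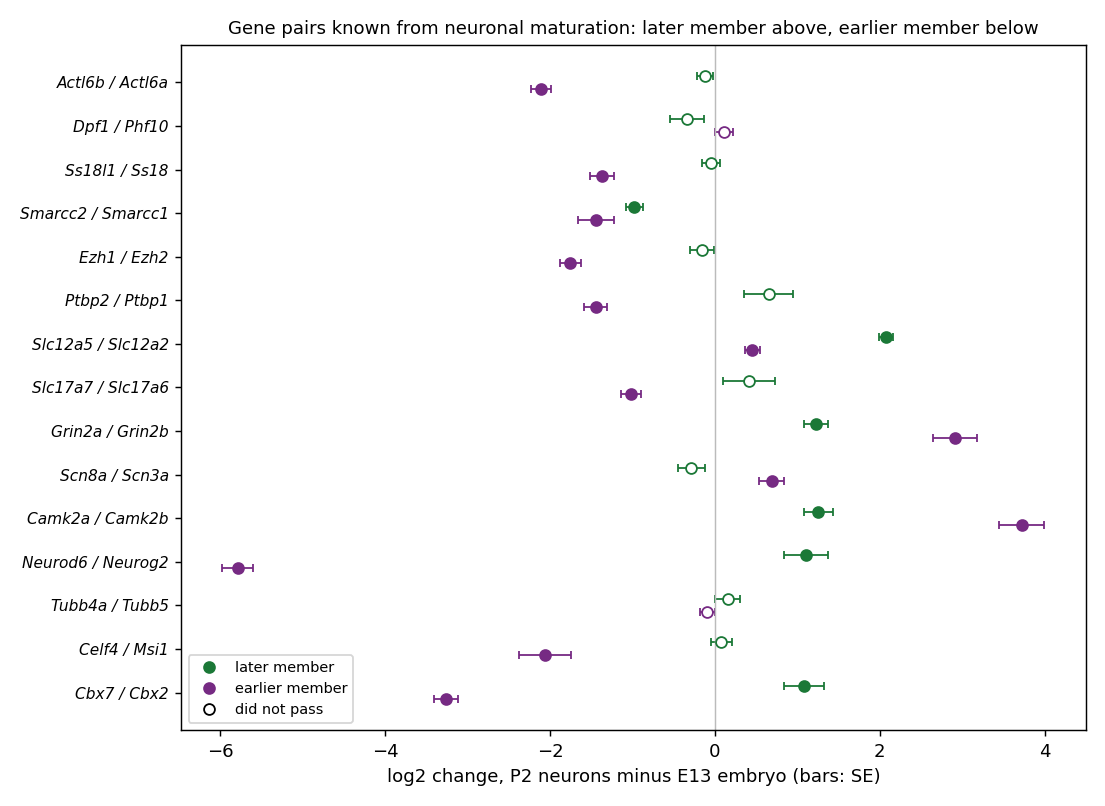
Log2 change in P2 neurons minus E13 embryo, with its SE, of the later and the earlier member of 15 gene pairs, with open circles where the gene did not pass. Neurod6 and Cbx7 lay to the right of 0 with their partners Neurog2 and Cbx2 to its left, while Grin2b and Camk2b lay to the right of Grin2a and Camk2a.

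A gene was called gained by P2 when its probe was detected in all 5 P2 arrays and in none of the 6 E13 arrays and was higher by limma. This held for 565 genes (5.3% of those tested), 15 of them predicted, with lower bounds of 1.01-fold to 50.1-fold and a median of 2.24-fold. In 564 of them no probe of the gene was detected in any E13 array. Just outside the rule stood 111 higher genes detected in 1 E13 array, with a median change of 1.43 against 1.95 inside. At E16, 454 of the 565 were still detected in no embryo array and 24 in all 5. The bound reached 10-fold for 51 gained genes and for 4 lost genes.

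The 12 gained genes with the largest fitted changes were mostly genes known from blood vessels, microglia or macrophages. Laptm5, a lysosomal membrane protein of blood-derived cells and microglia (chromosome 4), lay at 11.56, 11.87, 10.87, 11.13 and 11.01 in the P2 arrays against 4.56 to 4.95 with a median of 4.69 in the E13 arrays, at least 50.1-fold higher. Igfbp7, a secreted protein of vessel walls, lay at 11.42, 11.23, 11.09, 11.23 and 11.09 against 4.46 to 4.77 with a median of 4.69, at least 47.7-fold higher. Cldn5, the tight-junction claudin of the blood-brain barrier, lay at 11.04, 11.20, 10.61, 10.65 and 10.70 against 4.42 to 4.69 with a median of 4.49, at least 36.8-fold higher. All 3 were at background in every E13 array and strong in every P2 array, with array 3 among the lowest of the 5. Of the other genes named by size, Cav1, the coat protein of caveolae, Slc38a5, an amino acid transporter, Slco1c1, a thyroid hormone transporter of brain vessels, and Sparc, a matrix protein, were at least 31.2-fold, 30.1-fold, 19.9-fold and 32.4-fold higher. Fcrls, a receptor gene of microglia, Mrc1, the mannose receptor of perivascular macrophages, Pf4, a chemokine, Lyz1, a lysozyme, and the iron exporter Slc40a1 were at least 28.2-fold, 22.1-fold, 20.1-fold, 24.4-fold and 28.8-fold higher. Of the marker lists, 10 of 11 endothelial and pericyte genes, 11 of 12 microglial genes and 5 of 6 meningeal and fibroblast genes were gained, against 5.3% of all genes tested. These shares follow in part from the probe filter. It admitted a gene detected on no array outside the P2 group only if all 5 P2 arrays detected it, which the gained rule also asks.

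**Figure D5:**
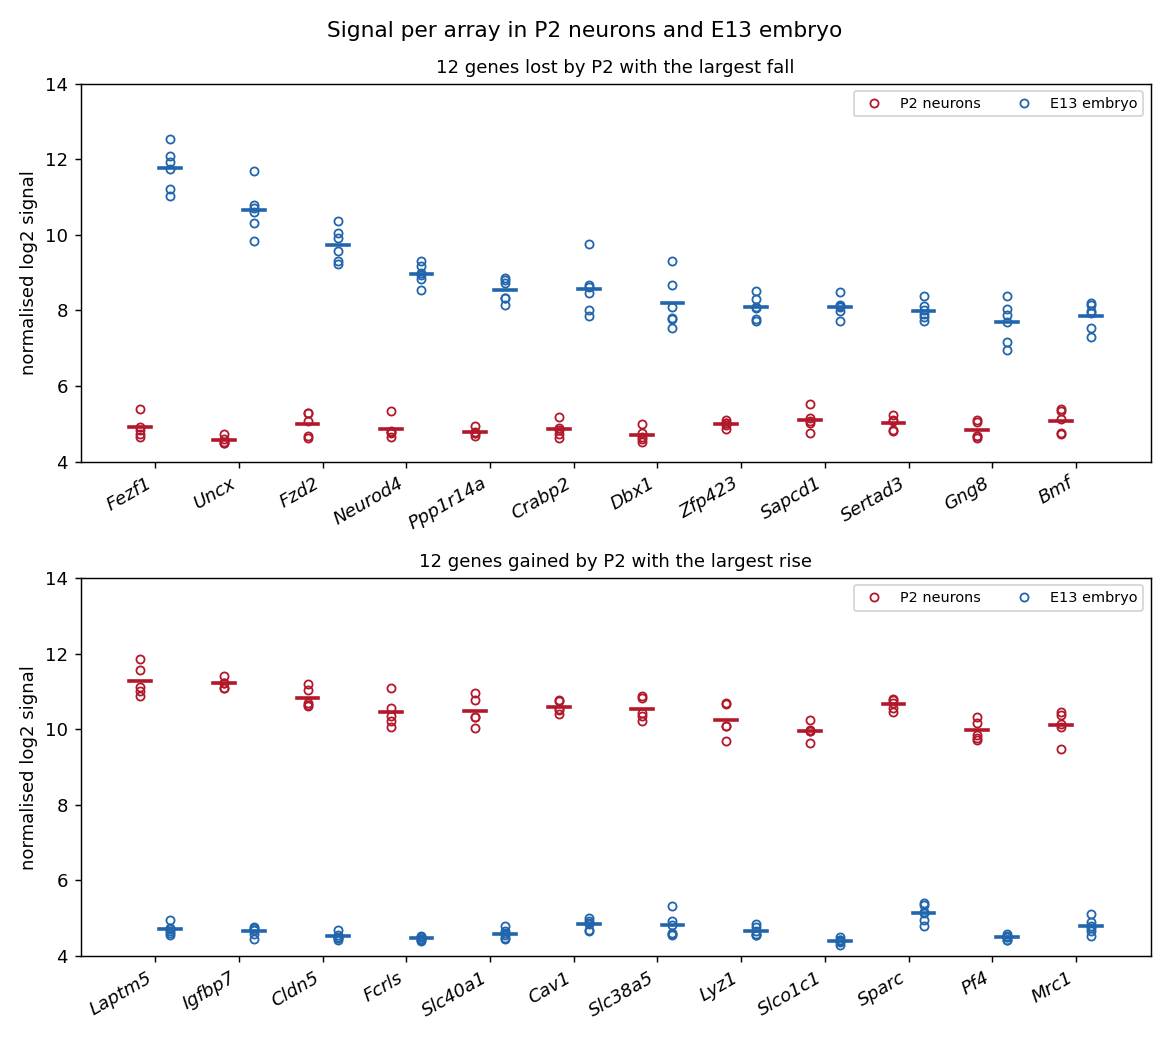
Normalised log2 signal per array in P2 neurons (left in each pair) and E13 embryo (right) of the 12 named genes lost by P2 (top) and the 12 gained by P2 (bottom), with group means as bars. The groups do not overlap in any of these genes, which follows from the rule that chose them.

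Of 14 upper-layer genes 10 rose and 2 fell, against 31.8% and 42.1% of all genes, with a median of 0.95 (8 and 2 without P2 arrays 3 and 4). Mef2c, a transcription factor of maturing projection neurons, lay at 14.36, 14.15, 14.12, 14.13 and 14.37 in P2 neurons against 9.31 to 9.85 with a median of 9.50 in E13 embryo, 25.7-fold higher (limma adjusted p = 3.68e-17), and was at 11.25 ± 0.22 at E16 (SD, n = 5). Dkk3, a secreted Dickkopf-family protein, lay at 11.91, 11.83, 11.78, 11.52 and 11.63 against 6.34 to 7.05 with a median of 6.63 and was 33.1-fold higher. Inhba, the activin beta A subunit, was 21-fold higher (detected in 1 E13 array). Nectin3, an adhesion molecule, was 9.15-fold higher by its brightest probe, although another probe of the gene moved the other way. Deep-layer genes gave 5 higher and 6 lower of 14, shares near those of all genes, with a median of 0.13 (8 and 6 with the tables normalised separately). Crym, a thyroid hormone binding protein, lay at 11.36, 11.47, 11.54, 11.87 and 12.17 against 4.95 to 6.81 with a median of 6.32 and was 47.2-fold higher, and the adhesion molecule Cntn6 was 10.4-fold higher, each detected in 4 E13 arrays. Otx1, a homeodomain factor of progenitors and layer 5 neurons, was 4.91-fold lower, at 9.61 ± 0.44 in P2 neurons and 11.90 ± 0.13 in E13 embryo (SD, n = 5 and 6).

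Of 6 tested subplate genes, which mark the earliest-born neurons under the cortical plate, 4 rose and 2 fell. Ccn2 was not detected at E13 and lay at 10.08, 10.33, 9.64, 9.77 and 9.42 in P2 neurons, at least 18.5-fold higher. Drd1, a dopamine receptor, was 9.53-fold higher (detected in 4 E13 arrays), and Nr4a2, a nuclear receptor, 8.63-fold higher. Nxph4, a neurexophilin, moved the other way, at 6.00, 6.23, 5.91, 6.56 and 6.81 against 10.20 to 10.77 with a median of 10.34, 17.6-fold lower. Cajal-Retzius cells are early neurons of the marginal zone that secrete reelin. Of 11 of their genes 7 fell and 3 rose, against 42.1% and 31.8% of all genes (5 and 4 with the tables normalised separately). The reelin gene Reln was among those that rose, by 1.4 (SE 0.31), with every P2 array above every E13 array. Summed signal of the list overlapped between the groups, 18400 to 31300 at P2 against 15300 to 23400 at E13. The transcription factor gene Ebf2 was 16.1-fold lower and was near background already at E16, with 9.31 ± 0.35 at E13, 5.68 ± 0.47 at E16 and 5.30 ± 0.38 at P2, where 2 arrays detected it. Ebf3 was 3.84-fold lower, at 10.05, 10.38, 9.26, 9.62 and 9.80 in P2 neurons against 11.23 to 12.01 with a median of 11.89. Ndnf, a secreted neurotrophic factor, was not detected at E13 and was at least 7.88-fold higher at P2.

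Genes of the postsynaptic density and of calcium signalling mostly rose, 27 of 34 with 5 lower and a median of 1.21 (27 and 4 without P2 arrays 3 and 4), and in 24 every P2 array lay above every E13 array, against 26% of all genes. Nrgn, neurogranin, which binds calmodulin in spines, lay at 10.88, 10.71, 10.88, 11.10 and 11.19 in P2 neurons against 5.11 to 5.73 with a median of 5.27 in E13 embryo (limma adjusted p = 2.49e-21), with 5 of the 6 E13 arrays under the detection limit. The calcium sensor gene Vsnl1 lay at 11.48, 11.52, 11.28, 11.20 and 11.25 against 5.89 to 6.56 with a median of 6.43, 33.1-fold higher, and was still at 6.42 ± 0.24 at E16. These genes were tight across the P2 arrays and did not overlap with E13. Camk4, a calmodulin-dependent kinase of the nucleus, was 26.4-fold higher (detected in 5 E13 arrays), and Ncald, neurocalcin delta, 23.4-fold. Of 25 synaptic vesicle and release genes 18 rose and 3 fell, against 31.8% and 42.1% of all genes, with a median of 1.1. Rims1, a scaffold of the active zone, was 8.13-fold higher, Rims3 5.04-fold, and Syt1, the calcium sensor of release, 5.02-fold, at 13.51, 13.65, 13.29, 12.99 and 13.16 against 10.43 to 11.32 with a median of 11.03. Sv2b, a vesicle glycoprotein, averaged 8.88 ± 0.29 at E13, 6.25 ± 0.30 at E16 and 10.77 ± 0.49 at P2, so that its lowest level was at E16.

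Receptor and channel genes rose more often than they fell, against 31.8% higher and 42.1% lower of all genes. With the tables normalised separately, 13 glutamate receptor genes were higher and 0 lower. The same setting gave 10 and 0 for the GABA-A receptor and chloride transporter list and 24 and 0 for voltage-gated channels. Of 14 ionotropic glutamate receptor genes 8 rose and 1 fell, with a median of 1.21. Grin3a, an NMDA receptor subunit of young neurons, was 11.9-fold higher, at 11.44, 11.86, 11.50, 11.18 and 11.09 in P2 neurons against 6.99 to 8.46 with a median of 7.98 in E13 embryo, and Gria1, an AMPA receptor subunit, 7.39-fold higher. The kainate receptor gene Grik1 was 4.73-fold higher and was detected in 4 E13 arrays and no E16 array. Of 10 genes of GABA-A receptors, glycine receptors and chloride transport 9 rose and 0 fell. Gabrb1, a beta subunit, lay at 10.52, 10.46, 10.46, 10.38 and 10.49 against 5.31 to 6.11 with a median of 5.65, 27.5-fold higher with 2 E13 arrays above the detection limit, and Gabrb2 and the glycine receptor gene Glrb were gained, at least 4.51-fold and 3.44-fold higher. Of 25 voltage-gated channel genes 17 rose and 2 fell, with a median of 0.75. Scn2a, the main sodium channel of young axons, lay at 10.33, 10.40, 10.13, 9.95 and 10.44 against 6.00 to 7.21 with a median of 6.65 and was 12-fold higher, the pacemaker channel gene Hcn2 9.82-fold and the A-type potassium channel gene Kcnd2 8.35-fold. Kcnab1, a potassium channel beta subunit, was at least 7.81-fold higher.

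Neuropeptide genes rose in 7 of 11 cases and 1 fell, against 31.8% and 42.1% of all genes (8 and 0 with the tables normalised separately). Npy, neuropeptide Y, lay at 11.51, 10.99, 11.57, 11.13 and 10.89 in P2 neurons against 5.23 to 6.46 with a median of 6.01 in E13 embryo, 38.2-fold higher, and was detected in 5 of the 6 E13 arrays. Grp, gastrin-releasing peptide, was 22.3-fold higher, Nts, neurotensin, 13.9-fold (detected in 5 E13 arrays) and Cck, cholecystokinin, 6.06-fold. The Npy signal ranged over 10.89 to 11.57 across the 5 P2 arrays, less than the interneuron genes Dlx1 and Slc32a1 did. The part of interneurons in the Npy signal was not tested. Axon guidance genes gave 11 higher and 10 lower of 29, near the shares of all genes (21 and 6 with the tables normalised separately). Sema3c, a secreted semaphorin, was 7.71-fold higher (detected in 4 E13 arrays), and the membrane semaphorin Sema7a 3.78-fold. Sema6d was 6.51-fold lower, at 7.27, 7.78, 7.77, 7.78 and 7.84 against 10.01 to 10.71 with a median of 10.42, and Dcc, the netrin receptor, 3.95-fold lower. Of 24 cytoskeletal genes 13 rose and 2 fell (22 and 0 with the tables normalised separately). Tubb6, a beta-tubulin, was 8.45-fold higher, Tubb2a 4.67-fold, Mapt 3.75-fold and the growth cone gene Gap43 2.64-fold, where Tubb6 was detected in 2 and Tubb2a in 1 of the 6 E13 arrays. Newborn and migrating neuron genes gave 8 higher and 5 lower of 16 (10 and 3 with the tables normalised separately). Among them Rnd2, a small GTPase of radial migration, was 10.2-fold lower, at 9.12, 9.55, 9.25, 9.56 and 9.63 against 12.47 to 13.19 with a median of 12.69. Sox11, a factor of immature neurons, fell by 1.17 with a very small spread, 13.93, 13.96, 13.87, 13.95 and 13.99 against 15.04 to 15.15 with a median of 15.12.

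The list of immediate early and dissociation stress genes, which cells induce within minutes of a stimulus or of being taken apart, held some of the largest rises. Of 13 tested 11 rose and 1 fell, with a median of 2.48. Fos lay at 12.01, 12.26, 13.06, 12.58 and 12.72 in P2 neurons against 5.83 to 7.09 with a median of 6.44 in E13 embryo, 66.1-fold higher (limma adjusted p = 1.87e-10). Egr1 lay at 12.44, 12.86, 13.54, 12.64 and 12.45 against 5.33 to 6.85 with a median of 6.07, 104-fold higher, with 3 E13 arrays above the detection limit. Fosb and Egr2 were gained, at least 11.5-fold and 9.8-fold higher. Both genes were high in every P2 array, and at E16 Fos ran from 6.60 to 9.48.

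Of 10 imprinted growth genes 6 fell and 2 rose (4 and 4 with the tables normalised separately). Dlk1, a Delta-like membrane protein detected in 4 P2 arrays, lay at 5.33, 6.77, 7.54, 6.73 and 6.19 in P2 neurons against 10.74 to 12.12 with a median of 11.22 in E13 embryo, 27.5-fold lower, and had reached 6.56 ± 0.77 by E16. Meg3, the non-coding RNA of the same imprinted cluster, moved the other way, at 10.83, 10.37, 10.42, 10.41 and 10.50 against 7.02 to 7.99 with a median of 7.73, 7.36-fold higher. Cdkn1c, the inhibitor of cyclin-dependent kinases p57, was 4.87-fold lower. Igf2, insulin-like growth factor 2, lay at 10.89, 12.06, 13.13, 12.21 and 11.10 against 7.55 to 8.40 with a median of 7.68 and was 16.3-fold higher. In the same arrays the meningeal and fibroblast sum was 1030, 1210, 2630, 1360 and 1190 at P2 against 156 to 188 at E13, highest on P2 array 3 as Igf2 was, and the part of those cells in the Igf2 signal was not tested. Ttr, transthyretin of the choroid plexus, gave the largest rise of all genes, 7.20 ± 0.84 SE, with 10.71, 12.70, 14.15, 12.77 and 13.25 at P2 against 4.70 to 7.37 with a median of 5.27 at E13, where 2 arrays detected it, while the choroid plexus and cortical hem list as a whole held 3 higher and 4 lower of 8 genes. Haemoglobin signal, Hba-a1, was 11.34 ± 0.97 in P2 neurons and 7.75 ± 1.53 in E13 embryo (SD, n = 5 and 6), was detected in 5 E13 arrays, and was highest on P2 array 3 too.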

How the data were processed

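RNA was measured on Illumina mouse BeadChips, 1 array per sample. The authors deposited non-normalised intensities, an average signal per probe from which a background had been subtracted before deposit, as values below 0 show, with a detection p-value beside each signal, per the file headers. They also deposited normalised log2 values of part of the probes, used only as an alternative, whose columns all have a median of 8.95 and whose normalisation and tool are not stated. Scanner software is not given in the sources used here.

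All 27 arrays were normalised together with normexp by detection p-values, an offset of 16 and quantile normalisation (limma 3.58.1, R 4.3.3). Of 45281 probes, 20498 were detected (p under 0.01) on 5 or more arrays, 17259 of them with 1 gene symbol. In the platform annotation 34885 probes had 1 symbol, 18 several and 10378 none, and 34807 were matched to RefSeq by gene ID. Each gene was read by its probe with the highest mean signal, and 360 of the genes that passed had another probe of opposite sign at an unadjusted p under 0.05. A linear model over all 5 groups with moderated variances gave each change, and p-values were adjusted over 10663 genes. A fold against a group with no detected array was computed against the lowest signal called detected on each array. Nothing says whether arrays of a group came from separate litters, so p-values measure the spread between these samples. On simulated data over 10663 genes for P2 neurons against E13 embryo, the test recovered 18 of 50 genes given a log2 change of 0.5, 44 of 50 at 1, 49 of 50 at 2 and 50 of 50 at 4, with 8 false calls among 169. The simulation put independent noise on values already normalised and changed few genes. It therefore does not cover errors that come from the scaling.

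The comparison, the 35 gene lists (491 of 690 genes tested) and the pairs were chosen with earlier results of these data known. Genes are named as follows: Eomes and Tbr1, the 12 lost and 12 gained genes with the largest fitted changes other than predicted genes, in each list the passing genes that changed most (4 at most), both members of each pair, and markers of other cell types detected in all arrays of a group. Reln, Hes1, Hes5 and Nrarp are named in addition and were not part of the checks on named genes. Promoters are RefSeq's, on GRCm38.p6, matched by symbol. Samples sharing a replicate number did not deviate together. Alternatives changed the background step, scaling, probe filter, probe choice, variance model, the groups in the fit and the arrays included.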

Additional observations from a re-analysis of the deposited data

Results flagged for a closer look

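Of the 302 groups formed by the named genes in P2 neurons and in E13 embryo, 14 had 1 array far from its nearest neighbour relative to the whole range, and chance alone flags about 1 in 20. All values are normalised log2 signals. In P2 neurons, array 1 was low for Grik1 (7.32, next 8.21) and Sema6d (7.27, next 7.77) and high for Grin2a (6.81, next 6.00), Meg3 (10.83, next 10.50) and Sema7a (11.48, next 11.08). P2 array 2 was high for Ptbp2 (8.74, next 8.34), and P2 array 3 was high for Neurod4 (5.34, next 4.82), a gene not detected in any P2 array. In E13 embryo, array 1 was high for Ttr (7.37, next 5.60) and Rims3 (8.76, next 8.34), and array 6 was high for Inhba (6.00, next 5.43) and low for Tubb5 (14.80, next 14.96). E13 array 3 was high for Aurkb (9.73, next 9.43), array 5 for Gria1 (8.74, next 8.22), and array 2 for Tnc (5.14, next 4.81), which no E13 array detected.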

How the results depend on the processing

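With the P2 and embryo tables normalised separately, 6910 genes were higher and 1474 lower, and 30 of the pair members passed, against 19 with all arrays normalised together. The same step turned Actl6b to 0.53, Dpf1 to 0.55, Ezh1 to 0.75, Scn8a to 0.69, Ss18l1 to 0.65 and Tubb5 to 0.23, none of which passed in the fit used for the results above, and the cause was not tested. Some of these genes passed as lower under other settings. These were Tubb5 with arrays scaled to a common median (-0.38), Actl6b and Dpf1 with the mean of all probes (-0.36 and -0.53), and Scn8a without P2 array 5 (-0.45). The authors' deposited log2 values, which hold fewer genes, gave 12 passing pair members and 210 passing members of the gene lists, against 408. With the replicate block on those values 2229 genes were higher and 2884 lower of 7520, with 12 pair members and 210 list members, against 2334 and 3015 for the same 10 arrays without it. Same-numbered samples had deviations correlated at -0.21 to 0.03, so the numbers did not pair them. Against 188 genes lost by P2, the rule found 105 at a detection p of 0.05, 96 when every probe had to meet it and 309 without P2 arrays 3 and 4, a setting added after seeing the data that asks for absence in fewer arrays. Against 565 gained, it found 307 when every probe had to meet it. Leaving out 1 array at a time gave 3291 to 3364 higher and 4382 to 4440 lower genes, 191 to 229 lost, 565 to 605 gained, 397 to 407 list members and 19 to 20 pair members. The rise of Slc32a1 was lost without P2 array 3 (adjusted p = 0.0932) or array 4 (adjusted p = 0.0541) in limma. Apart from separate normalisation, 2971 of 2991 values of the 151 named genes kept direction and side of the threshold, 17 newly passed and 3 no longer did. Genes near background on both sides, such as Ezh1, are limited by the signal over background.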
